A study of Zea mays with 8 samples.

Results

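Tassel regions bound with both tags of RAMOSA1 (RA1) that were also bound in ear are described here. Peaks of 4 lists were merged into 25032 regions on maize chromosomes 1 to 10, where any overlap of at least 1 bp joined peaks. A region was kept when it held a tassel YFP peak, a tassel HA peak and at least 1 ear peak, which left 231 members. They are 37.2% of the 621 tassel regions found with both tags, and the other 390 had no ear peak. The 4 lists come from 1 ChIP-seq library each: tassel YFP, tassel HA, ear YFP and ear HA. The primordia were pooled, measured 1 to 5 mm and came from ra1/ra1 plants labelled B73, so every library, in both tissues and with both tags, was mutant for the endogenous gene and carried a tagged copy. YFP or HA-FLAG was fused at the N-terminus, the constructs were made to act in the native RA1 domain, and families segregating for transgene and mutant showed that they could complement ra1. Transformation was done in HiII before crossing to ra1-R and backcrossing. Tassels were taken about 4 weeks and ears 6 weeks after planting. YFP was precipitated with a GFP antibody and HA with an HA antibody, and the number of transgenic events behind each pool is not given in the sources used here.

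RA1 is a plant zinc finger transcription factor with a repression motif, and maize ra1 mutants carry extra long branches in tassel and ear. The gene acts in the inflorescence next to the short-branch meristems that give rise to paired spikelets, and RA1 is known to work with the corepressor RAMOSA1 ENHANCER LOCUS2. A ChIP-seq peak is a stretch where precipitated fragments pile up over input DNA, and its summit is the base with the highest pile. A summit shared between tags and organs marks the same stretch of chromatin in separate precipitations. The genes around the members, and the base sequence of the regions, were not analysed here.

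Heights below are the authors' summit heights, whole numbers taken here as fragments although no file header states the unit, and they are not scaled to the unknown depth of a library. Scores are the authors' score per peak, for which the limit of p = 1e-05 is taken to lie at 50. The members were chosen by the presence of peaks in the 4 lists, so heights, widths and positions of those peaks are given as descriptions with no test. With 1 library per tissue and tag there is no replicate error. Intervals are exact 95% binomial intervals over regions or peaks, or exact 95% Poisson intervals on a height, and cover counting error only.

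The members were few, and most stood high within their lists. They held 237 of 4797 tassel YFP peaks (4.94%), 234 of 2875 tassel HA peaks (8.14%), 158 of 12840 ear YFP peaks (1.23%) and 216 of 6641 ear HA peaks (3.25%). Among the 100 highest peaks of a list, 51 of tassel YFP (interval 40.8% to 61.1%), 27 of tassel HA (18.6% to 36.8%), 62 of ear YFP (51.7% to 71.5%) and 78 of ear HA (68.6% to 85.7%) lay in members. The median member stood at the 95.4th percentile of heights in tassel YFP, the 88.2nd in tassel HA, the 98.2nd in ear YFP and the 97.5th in ear HA. Tassel HA was thus the list in which the members ranked lowest. The tallest tassel peaks lay outside the members, at heights of 169 in YFP and 174 in HA, against 137 and 69 within them. Tassel YFP heights of 80 or more occurred at 10 members and at 22 of the 390 regions without an ear peak. The median tassel HA heights there were 37 and 97. Of the 231, 140 had peaks in all 4 lists, 75 had an ear HA but no ear YFP peak, and 16 had an ear YFP but no ear HA peak. The ear YFP list is the longer of the 2 ear lists, yet it met fewer members than ear HA did.

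Heights differed by library, and at most members in all 4 lists tassel YFP was the highest and tassel HA the lowest. In tassel YFP they ran from 3 to 137 fragments with a median of 20 and quartiles of 13.5 and 30. In tassel HA they ran from 3 to 69 with a median of 6 and quartiles of 5 and 10. In ear YFP, 156 members had heights of 5 to 108 with a median of 16, and in ear HA 215 members had heights of 3 to 112 with a median of 14. For single regions at those medians, Poisson intervals are 12.2 to 30.9 fragments at 20, 2.20 to 13.1 at 6, 9.15 to 26.0 at 16 and 7.65 to 23.5 at 14. Many single members are therefore too shallow in tassel HA for their own ratio to be read closely. Among the 140 members in all 4 lists, tassel YFP was the sole highest library at 107 and tassel HA the sole lowest at 119. Tassel HA was the sole highest at 0 of the 140.

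**Figure D1:**
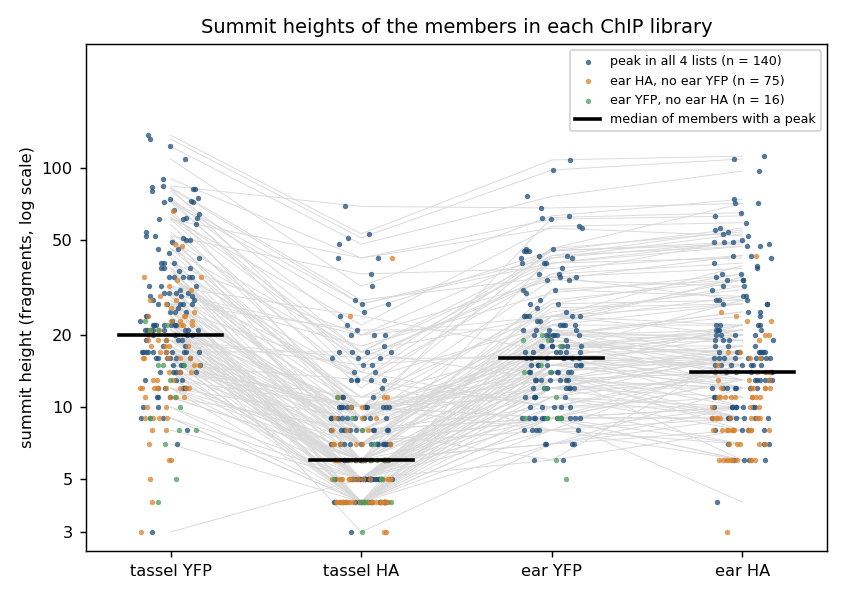
Summit height in fragments (log scale) of the 231 members in the tassel YFP, tassel HA, ear YFP and ear HA libraries; points are regions coloured by the lists they occur in, grey lines join the 4 heights of the 140 members in all 4 lists, black bars are medians (20, 6, 16 and 14), and points are spread sideways for clarity. Most lines dip at tassel HA.

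In tassel, YFP heights exceeded HA heights at nearly every member. YFP was higher at 224 of 231 (97.0%, interval 93.9 to 98.8), equal at 4 and lower at 3, while 77% of all 621 tassel regions with both tags had the higher YFP height. At 181 members (78.4%, 72.5 to 83.5) the YFP height was at least 2 times the HA height, against 43.5% of the 621 and 89 of the 390 without an ear peak (22.8%, 18.7 to 27.3). It was at least 4 times as high at 72 members (31.2%, 25.3 to 37.6) and at 9 of the 390 (2.31%, 1.06 to 4.34). An HA height of at least 2 times the YFP height occurred at 0 members, which 10 of the 621 tassel regions (1.61%) reached. The log2 ratio of YFP to HA averaged 1.53 ± 0.73 (SD over 231 regions) in members and 0.39 ± 0.68 (SD over 390 regions) in regions without an ear peak. As percentiles of height within a list, the members' median difference was 4.99 points. On heights divided by the median of their list over members of all 4 lists, a scale that sets the typical ratio near 0 by construction, their median log2 ratio was -0.13. Since the peaks that give these heights also chose the regions, the 2 sets were not tested against each other.

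The tassel ratio differed between ranges of tassel YFP height. That height is also the upper term of the ratio, so a rise across the ranges is in part built in. Its median was 0.74 for the 24 members with tassel YFP heights of 3 to 9, 1.32 for the 87 at 10 to 19, 2.0 for the 81 at 20 to 39, 2.14 for the 29 at 40 to 79 and 1.47 for the 10 at 80 to 137. In regions without an ear peak it was 0.26, 1.00, 0.21, 0.03 and 0.08 in these ranges (231, 86, 32, 19 and 22 regions). For those regions the end ranges were open, at up to 9 and at 80 or more. The 2 sets lay closest at 10 to 19 fragments and farthest apart at 40 to 79. By ear list, the median log2 ratio was almost the same in members of all 4 lists (1.59) and with ear HA only (1.58). It was 1.25 with ear YFP only, in 16 regions.

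In ear, both tags gave almost the same heights. Over the 140 members in all 4 lists the log2 ratio of YFP to HA had a median of -0.11 and a mean of -0.07 ± 0.40 (SD), and as percentiles of height within a list the median difference was 0.102 points, of the other sign. HA was higher at 84 (60%, interval 51.4 to 68.2), YFP at 46 (32.9%, 25.2 to 41.3), and 10 were tied. Over all 721 ear regions with both tags, HA was higher at 23.3%. Only 2 members reached 2 times in favour of YFP and 2 in favour of HA, where 6.8% and 0.416% of the 721 did. Among the 85 members with ear heights that sum to 30 or more, the region on chromosome 7 from 163670376 to 163671125 had the highest ratio, with 20 for YFP and 12 for HA (log2 ratio 0.74). The region on chromosome 1 from 268434133 to 268435503 lay at the other end, with 17 for YFP and 28 for HA (log2 ratio -0.72).

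On unscaled heights, the higher tag changed between the organs at many members of all 4 lists. At 83 of the 140 (59.3%, interval 50.7 to 67.5) YFP was the higher tag in tassel and HA in ear, and at 45 (32.1%, 24.5 to 40.6) YFP was higher in both. The count of 83 depends on the scale, and was 45 both for percentiles of height within a list and for heights over the list median. Unscaled, the log2 YFP to HA ratio was larger in tassel than in ear at 134 of the 140, with a median difference of 1.78 and quartiles of 1.10 and 2.33. The differences ran from -1.37 to 3.38, and the tassel HA heights in them rest on few fragments. They also depend on the scale, as the unknown depths of all 4 libraries enter them. Over the list median, which sets the typical ratio near 0 by construction, the median ratios were -0.13 in tassel (231 members) and -0.11 in ear.

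**Figure D2:**
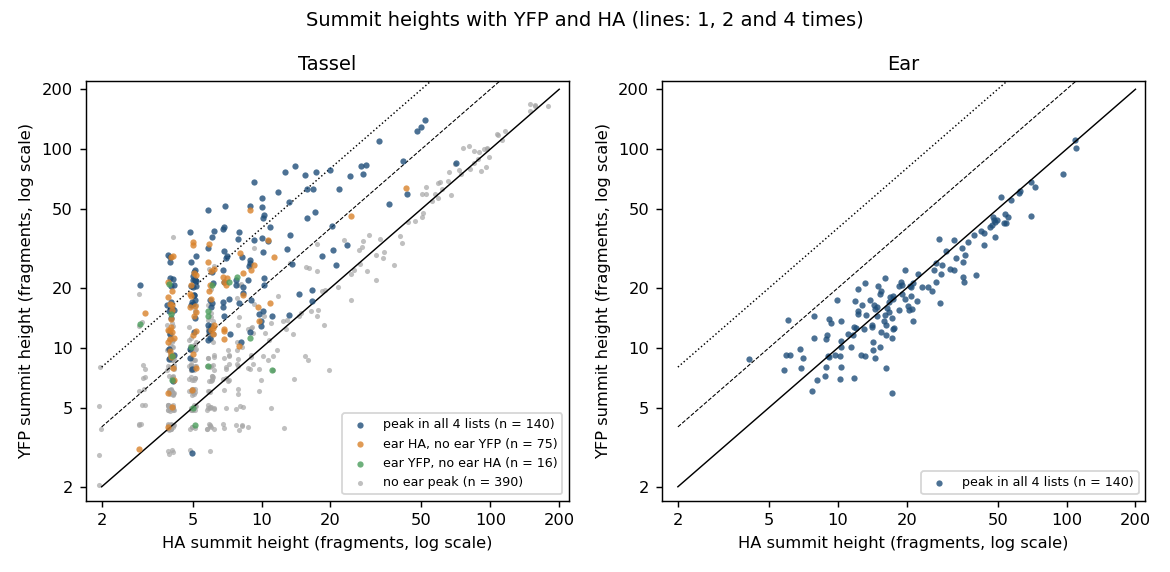
Summit heights in fragments (log scales) with YFP on the vertical and HA on the horizontal axis, for tassel at left and ear at right; colours give the ear lists a member occurs in, grey points are the 390 tassel regions without an ear peak, the lines mark ratios of 1 (solid), 2 (dashed) and 4 (dotted), and points are shifted slightly so that ties can be seen. In tassel 181 of 231 members lie on or above the dashed line, while in ear 136 of 140 lie within 2 times.

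Within a tag, the ratio of tassel to ear height lay above 1 with YFP and below 1 with HA for most members. With YFP, the log2 ratio of tassel to ear had a median of 0.51 over 156 members, tassel was higher at 123 (78.8%, interval 71.6 to 85.0), and 20 (12.8%) reached 2 times, against 7.75% of the 374 regions that hold both YFP peaks. An ear height of at least 2 times the tassel height occurred at 4 members (2.56%), where 27.3% of the 374 had it. With HA, the median was -1.09 over 215 members, tassel was lower at 192 (89.3%) and ear was at least 2 times as high at 124 (57.7%). That share is near the 59% of all 244 regions that hold both HA peaks, of which the 215 are the larger part. Tassel HA reached 2 times ear HA at 2 members (0.930%), near the 0.82% of the 244. The depths of the libraries are unknown here, so these medians cannot be read as more or less binding in either organ. As percentiles within a list, the median difference was -0.828 points with YFP, of the other sign, and -5.09 points with HA. On heights divided by the list median over members of all 4 lists, which sets the typical log2 ratio near 0 by construction, the medians were 0.07 with YFP and 0.19 with HA.

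The ranking of members by height was shared to different degrees. Over the 140 members in all 4 lists, Spearman's rho was 0.89 between ear YFP and ear HA, 0.84 between tassel YFP and ear HA and 0.78 between tassel YFP and ear YFP. It was 0.62 between tassel YFP and tassel HA, 0.56 between tassel HA and ear HA and 0.52 between tassel HA and ear YFP. Tassel YFP thus ranked the members more like both ear libraries than like the other tassel library. These coefficients are across regions of 1 library each and are descriptions. All pairs share the same regions, the tassel HA heights rest on few fragments, and part of the order comes from small integers and ties.

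The member with the best worst rank lay on chromosome 2 from 21600863 to 21602875. Its heights were 84 in tassel YFP, 69 in tassel HA, 68 in ear YFP and 71 in ear HA, and its 4 summits fell within 6 bp. Tassel HA, the lowest library at most members, here stood level with the ear libraries. On chromosome 1, the region from 271313206 to 271314760 had 61, 42, 56 and 52 fragments in the same order and summits within 2 bp. Heights at chromosome 1 from 5639216 to 5639972 were 52, 36, 38 and 43 with summits within 3 bp. These members had low tag ratios in tassel, with log2 values of 0.28, 0.54 and 0.53.

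Other high members kept the usual excess of tassel YFP. On chromosome 5, the region from 13591273 to 13592107 had 83 fragments in tassel YFP, 28 in tassel HA, 35 in ear YFP and 28 in ear HA. Chromosome 7 from 135811773 to 135813095 had 109, 32, 63 and 74. Chromosome 1 from 62371697 to 62372144 had 132, 51, 98 and 109, and that on chromosome 6 from 140855248 to 140855912 had 137, 53, 108 and 112, the highest ear heights of any member. In the last 3 of these, ear HA stood above ear YFP.

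The highest tassel ratios were sought among the 40 members whose tassel heights sum to 50 or more. Ranking by this ratio favours low HA heights, and the top 3 had 6 to 9 fragments in tassel HA. Chromosome 1 from 152375810 to 152376849 had 49 fragments in tassel YFP and 6 in tassel HA (log2 ratio 3.03), with 43 in ear YFP and 55 in ear HA. Chromosome 6 from 138678555 to 138678967 had 67 and 9 in tassel (2.90) and 28 and 34 in ear. Chromosome 8 from 29248868 to 29249710 had 52 and 7 in tassel (2.89) and 27 and 36 in ear. In each of the 3, tassel HA was the only library below 25 fragments.

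Summits of separate libraries fell on nearly the same bases. Over the 140 members in all 4 lists, the median distance was 4 bp between tassel YFP and tassel HA, 4 bp between ear YFP and ear HA, 5 bp between tassel YFP and ear YFP and also 5 bp between tassel YFP and ear HA. Tassel HA summits lay a median of 8.5 bp from ear YFP and 7 bp from ear HA. The distance was at most 10 bp for 94, 97, 96, 100, 78 and 84 of the 140 in the same order of pairs. No pair had a consistent shift to one side, with median signed distances between -1 and 1 bp, and the median summit sat at 0.495 to 0.497 of the width of its peak in each list. In the 390 tassel regions without an ear peak the tags' summits lay a median of 5.5 bp apart, and 236 (60.5%, interval 55.5 to 65.4) were within 10 bp. For all 231 members the median was 5 bp and 150 (64.9%, 58.4 to 71.1) were within 10 bp, so the intervals of the 2 sets overlap.

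Taking the 4 summits of a member together, the spread from the leftmost to the rightmost had a median of 15 bp, with quartiles of 6 and 79 bp and a range of 1 to 2271 bp. It was at most 10 bp at 59 members (42.1%), at most 100 bp at 116 (82.9%) and above 500 bp at 3. The smallest spread, 1 bp, was found among others on chromosome 4 from 58957818 to 58958645 (62, 16, 36 and 50 fragments in tassel YFP, tassel HA, ear YFP and ear HA) and on chromosome 7 from 3942460 to 3942897 (30, 20, 34 and 32). The largest was on chromosome 1 from 230921320 to 230924382, with 12, 6, 13 and 9 fragments, followed by chromosome 4 from 6291942 to 6294623, with a spread of 1156 bp and heights of 12, 7, 26 and 27. Both are also among the 3 widest members. A low spread was more common at higher tassel YFP heights up to 79 fragments: the median was 53 bp at 3 to 9 fragments (6 members), 22 bp at 10 to 19 (44), 15 bp at 20 to 39 (54) and 6.5 bp at 40 to 79 (26). It was 42 bp at 80 to 137, where 10 members remain.

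Among members in all 4 lists, a set with near-equal tassel heights had the tightest summits. The limit used, a tassel YFP height of at most 1.5 times the HA height, was chosen after the values were seen. It holds for 18 of the 140 members in all 4 lists and for 12 members with 1 ear list. In these 12 the tassel summits were within 10 bp at 8 (66.7%), near the 64.9% of all 231 members. Summits of the 18 spread over a median of 3 bp, with 16 of 18 within 10 bp and 15 within 5 bp. In the other 122 the median was 20.5 bp, with 43 within 10 bp and 17 within 5 bp. The 18 had the lower median tassel YFP height, at 16 fragments against 24.5 in the 122. At tassel YFP heights of at least 10 the median spreads were 3 bp (17 members) and 20 bp (117 members). In tassel HA the 18 were the taller, with a median height of 14. The medians were 5 to 8 in the higher ranges of the ratio. A low YFP to HA ratio favours high HA heights by its definition. The spread was not compared at matched tassel HA heights, so a part of tassel HA height in it was not tested.

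Single regions of the 18 show the heights behind the limit. On chromosome 2 from 203474702 to 203475039 the heights were 19 in tassel YFP, 16 in tassel HA, 16 in ear YFP and 15 in ear HA, with summits within 1 bp. On chromosome 5 from 196956304 to 196956864 they were 27, 21, 21 and 19, and on chromosome 4 from 238640733 to 238641077 they were 17, 17, 13 and 16, each with summits within 1 bp. Copy number and mappability of these stretches were not tested, which limits how far their heights can be read as occupancy. Less even heights were found on chromosome 4 from 32822820 to 32823793, with heights of 3, 5, 14 and 9 and a spread of 123 bp, and on chromosome 10 from 26040207 to 26040543, with 13, 10, 9 and 6.

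The median region width was 380 bp in the 18, of which 11 were at most 450 bp wide, and 675.5 bp in the 122, of which 20 were. Ear peaks had median widths of 303 bp with YFP and 307 bp with HA in the 18, against 531.5 and 470.5 bp in the 122. Tassel widths differed less, at 281 and 340.5 bp against 308.5 and 346 bp. Of the 18, 14 lay in the outer 40% of the chromosome span (77.8%, interval 52.4 to 93.6), and 58 of the 122 did (47.5%, 38.4 to 56.8). These intervals overlap.

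**Figure D3:**
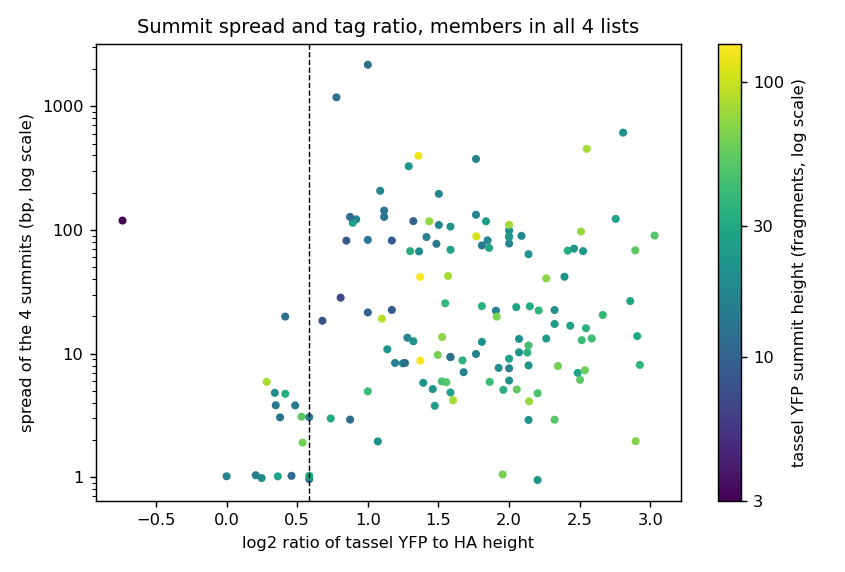
Spread of the 4 summits in bp (log scale) against the log2 ratio of tassel YFP to HA height for the 140 members in all 4 lists, coloured by tassel YFP height and shifted slightly up or down so that ties can be seen; the dashed line marks a ratio of 1.5. Of the 18 members on or left of the line 16 have a spread of at most 10 bp, and 43 of the 122 to the right do.

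Members with a single ear list had lower median tassel heights than those in all 4 lists. The 75 with ear HA only had median heights of 16 in tassel YFP, 5 in tassel HA and 10 in ear HA, all below the 23, 7 and 17 of members in all 4 lists. Their ear HA peaks had a median width of 465 bp, close to the 458 bp of members in all 4 lists, and the ear HA summit lay a median of 7 bp from the tassel YFP summit. The highest ear HA height of this group was 43, on chromosome 1 from 256136930 to 256138766, where tassel YFP had 25 and tassel HA 6. The region on chromosome 2 from 202196055 to 202196726 had 66, 42 and 23 in tassel YFP, tassel HA and ear HA, the tallest tassel summits of the group.

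The 16 with ear YFP only had ear peaks of a median width of 1303.5 bp, against 519 bp for ear YFP in members of all 4 lists and 649 bp in the whole ear YFP list. Their ear YFP summit lay a median of 113 bp from the tassel YFP summit, and 4 of 16 were within 10 bp, whereas the tassel summits lay 3.5 bp apart. All 16 tassel YFP summits fell inside the ear YFP peak, but the ear YFP summit fell inside the tassel YFP peak in 75%. The highest ear YFP height was 20, on chromosome 1 from 293637218 to 293639031, with 7 in tassel YFP and 4 in tassel HA and summits spread over 824 bp. At that region the tassel peaks did not overlap each other, and only the ear YFP peak joined them. A region of sharper agreement was chromosome 4 from 184664593 to 184665260, with 15, 6 and 19 in tassel YFP, tassel HA and ear YFP and a spread of 2 bp. With 16 regions these medians are loose.

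The share of members seen with both ear tags was larger at higher tassel heights. It was 25% (interval 9.77 to 46.7) at tassel YFP heights of 3 to 9, 50.6% (39.6 to 61.5) at 10 to 19, 66.7% (55.3 to 76.8) at 20 to 39 and 89.7% (72.6 to 97.8) at 40 to 79. All 10 members at 80 to 137 had both (69.2 to 100). Members at low tassel heights were also low in ear HA, with medians of 7.5 fragments at 3 to 9 and 17 at 20 to 39.

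Peaks of a member were mostly narrower in tassel than in ear, an order that the whole lists share, with median widths of 284 bp in tassel YFP, 345 bp in tassel HA, 649 bp in ear YFP and 518 bp in ear HA. Among members the medians were 299 bp in tassel YFP, 341 bp in tassel HA, 535 bp in ear YFP and 459 bp in ear HA. With YFP the tassel peak was the narrower at 129 of 156 members (82.7%, interval 75.8 to 88.3), with a median tassel to ear ratio of 0.629. With HA it was the narrower at 144 of 215 (67.0%, 60.3 to 73.2), with a median ratio of 0.813. Between tags, the YFP peak was narrower than the HA peak at 161 of 231 members in tassel (69.7%) and at 51 of 140 in ear (36.4%). Merged regions spanned 309 to 3063 bp, with a median of 626 bp. The narrowest was on chromosome 9 from 8124059 to 8124367, with 10 fragments in tassel YFP, 4 in tassel HA and 6 in ear HA.

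Taller peaks were somewhat wider among members. Spearman's rho was 0.34 in tassel YFP, 0.32 in tassel HA, 0.29 in ear YFP and 0.33 in ear HA (231, 231, 156 and 215 regions). In the whole lists it was -0.12, -0.28, 0.44 and 0.26, so the sign in tassel differed between members and the lists they come from. The members' sign was shared by the 390 tassel regions without an ear peak, at 0.45 in tassel YFP and 0.41 in tassel HA. No p is given, since regions of a library share its fragments.

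**Figure D4:**
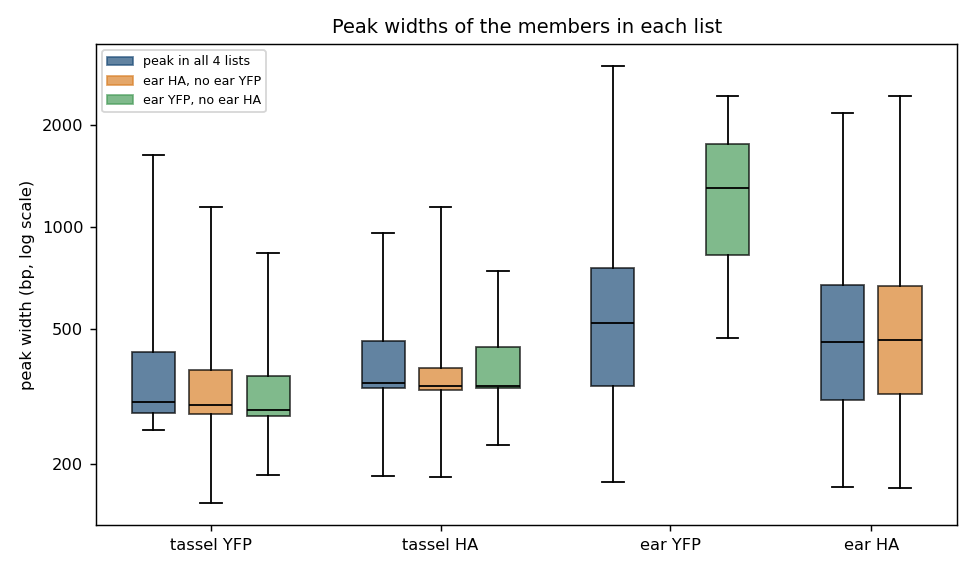
Peak width in bp (log scale) of members in each list, by the ear lists a member occurs in; boxes show quartiles and median, and whiskers the full range. The ear YFP peaks of the 16 members without an ear HA peak have a median of 1303.5 bp, against 519 bp in members of all 4 lists.

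All 10 chromosomes held members, from 16 on chromosome 10 to 43 on chromosome 1. Chromosome 1 held 18.6% of members (interval 13.8 to 24.2) and 14.6% of the span, and chromosome 3 held 7.36% (4.35 to 11.5) and 11.3% of the span. Of the 390 regions without an ear peak, chromosome 1 held 18.2% and chromosome 3 12.6%, and of all 25032 regions 14.6% and 10.2%. The share of members in all 4 lists was 18 of 24 on chromosome 4 but 8 of 20 on chromosome 8 and 9 of 22 on chromosome 9. It was 140 of 231 over all chromosomes, and the counts per chromosome are small. Along the chromosomes, 115 members (49.8%, 43.2 to 56.4) lay in the outer 40% of the span, against 187 of the 390 regions without an ear peak (47.9%, 42.9 to 53.0) and 42.8% of all 25032 regions. The middle 20% held 31 members (13.4%, 9.30 to 18.5) and 70 of the 390 (17.9%, 14.3 to 22.1). Of 10 equal stretches, the first and last held 31 and 33 members and the fifth held 14, the fewest. The intervals of members and of regions without an ear peak overlap at both places.

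**Figure D5:**
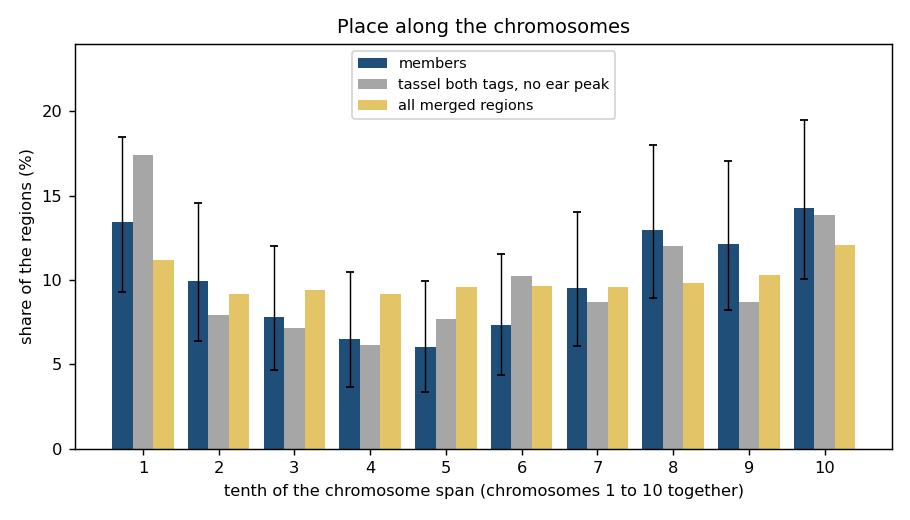
Share of regions in each of 10 equal stretches of the chromosome span, all 10 chromosomes together, for members, for the 390 tassel regions without an ear peak and for all 25032 regions; error bars are exact 95% intervals on the members. Members are most frequent in the last stretch (33) and least in the fifth (14).

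Members were usually far from one another, with a median gap of 2863490 bp to the nearest other member, but 12 lay within 10 kb of one (5.19%, interval 2.71 to 8.90). In the regions without an ear peak 13 of 390 had another such region as near (3.33%, 1.79 to 5.63). The 12 form 6 pairs with gaps of 486 to 2217 bp. In 5 of the 6 both regions had peaks in all 4 lists.

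On chromosome 8 the regions from 166827554 to 166827899 and from 166828386 to 166828865 lay 486 bp apart, with tassel YFP summits 831 bp apart. The left one had 75 in tassel YFP, 17 in tassel HA, 40 in ear YFP and 42 in ear HA, and the right one 35, 6, 23 and 34. On chromosome 1 the region from 62370674 to 62371001, with 30, 4, 17 and 17, lay 695 bp left of the strong region named above, whose tassel YFP height was 132. Each of the 4 libraries thus saw 2 separate peaks at these places, the taller one being the same in all 4.

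The other pairs had more equal partners or weak ones. On chromosome 8, the region from 29248868 to 29249710 lay 1256 bp from that at 29250967 to 29251816, which had 35, 11, 25 and 31. In that pair the left region was the taller in tassel YFP, ear YFP and ear HA, and the right one in tassel HA. On chromosome 6, the region from 138678555 to 138678967 lay 1012 bp from that at 138679980 to 138681294, with 80, 20, 45 and 49. Of the 3 members with the tallest ear peaks, 2 formed a pair on chromosome 6, from 140853414 to 140854419 and from 140855248 to 140855912, with tassel YFP summits 1701 bp apart. The pair with an ear HA only region was on chromosome 8, where 111192311 to 111193213 had 14, 4 and 10 in tassel YFP, tassel HA and ear HA and its partner from 111195431 to 111195832 had 32, 24, 17 and 22 in the 4 libraries.

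Peaks outside the members were common nearby. Of the 231, 87 (37.7%, interval 31.4 to 44.3) had some other region of any list within 10 kb, against 133 of the 390 (34.1%, 29.4 to 39.0). Another ear HA region was that near to 31 members (13.4%, 9.30 to 18.5) and to 29 of the 390 (7.44%, 5.04 to 10.5). The near ear YFP shares were 21.6% (16.5 to 27.5) and 16.7% (13.1 to 20.7), the tassel YFP shares 15.2% and 14.6%, and the tassel HA shares 10.4% and 7.18%. Each pair of intervals given overlaps, that for ear HA only narrowly, and the lists differ in length.

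Some members lay at the score limit, while none rested on a small overlap between a tassel and an ear peak. The lowest scores of any member peak were 50.04, in ear HA, on chromosome 2 from 176239172 to 176239558 (15, 3 and 11 fragments in tassel YFP, tassel HA and ear HA) and on chromosome 8 from 65000221 to 65000559 (11, 7 and 7). The overlap between a tassel and an ear peak had a median of 338 bp and was never below 163 bp, the value on chromosome 6 from 120713525 to 120713848. At 230 of the 231 the tassel peaks overlapped each other directly and one of them overlapped an ear peak. The exception was the region on chromosome 1 from 293637218 to 293639031. Just outside the rule, the tassel region nearest to an ear peak lay 25 bp from it, on chromosome 9 from 87571751 to 87571944, with 4 fragments in each tassel library. The next lay 188 bp away on chromosome 2 from 231634262 to 231634647, with 9 in tassel YFP and 4 in tassel HA. In all, 7 of the 390 had an ear peak within 1000 bp.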

How the data were processed

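RA1 occupancy was measured by ChIP-seq in 4 ChIP libraries, with 4 input libraries whose own values were not used here. Per the submitters' processing notes, CASAVA and MACS 1.4.0rc2 were used. The aligner, the read filters and the input used for each library are not stated by those sources. The authors deposited a score per peak, read as minus 10 log10 of p since none lies below 50 and the series text names a limit of 1e-05, and a summit signal, taken as the pileup height in fragments because its values are whole numbers. No file header states either unit. Total reads are unknown. Sequence names carry the build AGPv2. Starts were taken as 0-based and are printed 1-based. Peaks on chromosomes 1 to 10 were merged in Python (3.11.15) with pandas (2.3.3) and numpy (2.4.6), and intervals came from scipy (1.17.1). Where a region held several peaks of a list, at 9 members, the highest summit was used. Positions along a chromosome are fractions of the span that ends at its last peak, taken at the middle of a region. The merging was tested on simulated data with well separated regions and 1 peak per list in each. Regions joined only through another peak, or with several peaks of a list, were not part of that test. No test across libraries was made, because each tissue and tag has 1 library.

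Regions named are the 10 members with the best worst-list height percentile, the 5 highest of each single ear list, the extremes of tag ratio, summit spread and width, all members within 10 kb of another, and those just inside and outside the rule, and the text gives a part of them. The 18 near-equal members were chosen after their values were seen. Members and lists were chosen with earlier results of these data known. Alternatives changed the joining overlap, the score and height minimum, the peak taken and the scale of heights.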

Additional observations from a re-analysis of the deposited data

Results flagged for a closer look

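On unscaled heights, the tag contrast had opposite signs in the tissues. Over the 140 members in all 4 lists, YFP stood above HA in tassel (median 1.59 on the log2 scale of height ratios) and slightly below it in ear (-0.11). With 1 library per tissue and tag the difference was not tested, and depth enters both medians. On other scales both medians had one sign, at 4.99 points in tassel (231 members) and 0.102 points in ear as percentiles within a list, and at -0.13 in tassel (231 members) and -0.11 in ear over the list median.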

How the results depend on the processing

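No paired analysis was possible because each tissue and tag has 1 library and the labels give no replicate numbers; for the same reason no library could be left out. Joining at 50 bp, joining across 100 bp gaps, direct overlaps, single peaks per list, a height of at least 5, the peak of highest score and, chosen after seeing the data, leaving out members with tassel YFP up to 1.5 times HA moved no count by over 1.5 times and no median or share beyond its 95% interval. At a score of at least 100, 92 members were left, 51 of them in all 4 lists and 38 with YFP higher in tassel and HA in ear, and 58.7% lay in the outer 40% of the span. Heights are unscaled, so ratios between libraries depend on the scale. As percentiles within a list, the median difference of YFP minus HA was 4.99 points in tassel and turned positive in ear (0.102). That of tassel minus ear turned negative with YFP (-0.828) and was -5.09 with HA, and 45 members had YFP higher in tassel and HA in ear. Divided by the list median over members of all 4 lists, which sets the typical ratio near 0 by construction, the log2 ratio was -0.13 for tassel YFP over HA, 0.0709 for tassel over ear with YFP and 0.19 with HA, and again 45 members had the opposite tag order.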

Other observations

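In regions without an ear peak, a tassel YFP height of at most 1.5 times the HA height did not come with closer tassel summits. This limit held for 269 of the 390 tassel regions without an ear peak, including the 10 with HA at least 2 times YFP. Tassel summits of the 269 lay a median of 6 bp apart, with 59.5% within 10 bp, at median heights of 7 in YFP and 6 in HA. Of the 390, 57 had a ratio above 1.5 and up to 2, with a median of 4 bp and 70.2% within 10 bp. In the 47 above 2 and up to 3 the values were 8 bp and 57.4%, and in the 11 above 3 and up to 4 they were 4 bp and 63.6%. The 18 members of all 4 lists within the limit had a median of 1 bp, with 94.4% within 10 bp, at median heights of 16 and 14. The 18 were thus taller than the 269, and the 2 sets were not matched for height. The 12 members with 1 ear list within the limit had a median of 2 bp, with 66.7% within 10 bp. The 39 members of all 4 lists with a ratio above 2 and up to 3 had a median of 6 bp and 64.1% within 10 bp. Outside chromosomes 1 to 10, the peaks of the 4 lists merged into 90 regions, of which 3 held both tassel tags and 0 also held an ear peak.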
